A study of Homo sapiens with 8 samples.

Results

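The HOX cluster genes are the members of the 4 human HOX clusters, and they were taken as every gene of the table whose symbol is HOX followed by a cluster letter from A to D and a paralogue number. The rule gave 39 genes of 27475 human genes, and it used symbols only and no measured value. HOXA had 11 members on chromosome 7 (27092993 to 27200091), HOXB 10 on chromosome 17 (48528526 to 48728750), HOXC 9 on chromosome 12 (53938831 to 54056030) and HOXD 9 on chromosome 2 (176087487 to 176190907), all in the RefSeq annotation of GRCh38.p14. HOXA9 and HOXC12 were listed at 0 in all libraries, and the other 37 members were above 0 in at least 1.

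Gene expression was measured by RNA-seq in UM-UC-3 and RT112, 2 established human bladder cancer cell lines. Cells of each line were transfected at 100 pmol for 72 h, with 3 pooled siRNAs in the siPAI-1 groups and with 3 pooled scrambled siRNAs in the control groups (Scr), so every library comes from transfected cells. Each of the 4 groups had 2 libraries, numbered replicate 1 and 2, and each line is 1 cell line rather than a sample of tumours. The paper describes independent replicate experiments of the siRNA transfection, but no label ties a library to one of them, so the p-values measure the spread between these libraries, which may be partly technical.

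HOX genes encode homeodomain transcription factors that set position along the body axis. Within a cluster the genes lie in the order of their paralogue numbers, and low numbers are used towards the head and high numbers towards the tail and the urogenital tract, where HOXA13 and HOXD13 are needed for normal development. The proteins bind DNA together with TALE cofactors such as PBX and MEIS proteins. Polycomb complexes keep HOX genes silent, Trithorax complexes keep them active, and retinoic acid induces low-numbered members. Adult cells and tumour lines often keep a HOX pattern that reflects where they came from.

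A level is given here in TPM, a transcript abundance scaled to gene length and to the library, so that levels can be set side by side between genes. A value of 0 in the table may also stand for an estimate that failed, and such a gene is called listed at 0. Depth was estimated at 29.3 to 34.2 M reads per library, and at the median length of the members 3 reads corresponded to 0.0648 to 0.0761 TPM, so values below about 0.1 TPM rest on few reads. A difference between groups is on the log2(TPM + 0.1) scale, which understates the change of genes with low levels. It was tested with limma and called at a Benjamini-Hochberg adjusted p under 0.05 over all genes tested, and every adjusted p below comes from this test.

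The sequences shown are the promoters of members that reached a mean of 1 TPM in both groups of one line and in no group of the other, as far as the RefSeq promoter table (GRCh38.p14) holds them. The table held 27 windows for 20 of the 39 members. Each sequence is the 250 bases before the start site of a promoter window, 5′ to 3′ on the strand of the gene. HOXA2 (chr7:27102684-27102933, minus strand), HOXA13 (chr7:27200092-27200341, minus strand) and HOXD11 (chr2:176107030-176107279, plus strand) passed 1 TPM in RT112, and HOXA7 (chr7:27156676-27156925, minus strand) and HOXD13 (chr2:176092471-176092720, plus strand) in UM-UC-3. Capitals mark matches on either strand to the CCAAT box (CCAAT), the GC box (GGGCGG), the TATA box (TATAAA), a PBX-HOX site (TGATTNAT) and a CDX site (TTTATNG), and adjoining or overlapping matches run together.
HOXA2: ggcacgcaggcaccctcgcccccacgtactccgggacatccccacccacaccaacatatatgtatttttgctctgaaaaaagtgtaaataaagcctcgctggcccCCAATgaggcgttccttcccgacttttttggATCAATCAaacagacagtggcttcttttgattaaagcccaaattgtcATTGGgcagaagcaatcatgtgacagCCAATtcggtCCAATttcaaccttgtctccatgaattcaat
HOXA13: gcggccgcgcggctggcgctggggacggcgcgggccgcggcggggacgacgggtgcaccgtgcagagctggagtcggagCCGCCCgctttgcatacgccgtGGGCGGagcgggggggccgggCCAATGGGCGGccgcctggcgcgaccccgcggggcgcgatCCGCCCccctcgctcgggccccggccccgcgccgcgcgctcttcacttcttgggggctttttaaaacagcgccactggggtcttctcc
HOXD11: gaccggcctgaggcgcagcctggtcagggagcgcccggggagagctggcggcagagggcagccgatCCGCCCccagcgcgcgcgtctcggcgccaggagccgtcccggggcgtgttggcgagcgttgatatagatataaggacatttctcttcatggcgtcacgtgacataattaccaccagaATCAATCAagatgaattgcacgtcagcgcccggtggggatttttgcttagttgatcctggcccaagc
HOXA7: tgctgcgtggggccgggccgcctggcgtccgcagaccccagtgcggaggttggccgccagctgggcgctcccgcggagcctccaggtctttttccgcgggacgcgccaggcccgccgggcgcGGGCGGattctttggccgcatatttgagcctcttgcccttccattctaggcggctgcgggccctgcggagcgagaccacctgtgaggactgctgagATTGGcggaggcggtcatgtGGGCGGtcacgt
HOXD13: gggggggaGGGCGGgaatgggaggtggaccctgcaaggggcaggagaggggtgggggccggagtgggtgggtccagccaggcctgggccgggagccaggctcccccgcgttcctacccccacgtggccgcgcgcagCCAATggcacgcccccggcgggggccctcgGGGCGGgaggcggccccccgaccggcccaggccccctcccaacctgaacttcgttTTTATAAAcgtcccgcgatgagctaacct
A CCAAT box was found in 18 of the 27 HOX windows and in 32.0% of 35116 windows over all genes. The GC box was in 13 of the 27, against 42.6% of all windows, and the CDX site was in 7, against 8.93%. The PBX-HOX site, which 2.48% of all windows held, was in those of HOXA2 and HOXD11, both higher in RT112. HOXD13 was the printed member with a TATA box, which starts 27 bases before the start site of its window and which 10.7% of all windows held. The windows of HOXC4 and HOXC5 are the same sequence, HOXA3 has several windows, the HOXD13 window lies inside the annotated span of the gene, and a match is a description of the letters and not of binding. GC content over the printed bases ran from 47.2% in HOXA2 to 78.0% in HOXA13, so both the lowest and the highest belonged to members with more RNA in RT112.

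The labels call both lines bladder cancer cells. Of 19 urothelial and epithelial markers, 17 were higher in RT112 Scr than in UM-UC-3 Scr and none lower. Over all genes tested, 25.3% were higher in RT112 Scr and 26.3% in UM-UC-3 Scr. The summed level of the markers was 228 to 251 TPM in the UM-UC-3 and 16982 to 18127 TPM in the RT112 libraries. GATA3, a regulator of urothelial identity, was at 0.69 to 1.38 TPM in UM-UC-3, each of 4 uroplakins was at most 1.05 TPM there and GRHL3 was listed at 0. In RT112 the uroplakins UPK1B and UPK2 were at 580 to 644 and 24.1 to 31.8 TPM. UPK1A and UPK3A were low there too, at 0.36 to 1.96 and 0 to 0.08 TPM. Other genes of the list were well above 0 in UM-UC-3, with KRT18 at 167 to 186 TPM, KRT8 at 31.2 to 42.1 TPM and PPARG at 4.53 to 6.05 TPM. The summed level of 9 mesenchymal markers was 2940 to 3233 TPM in UM-UC-3 and 39.4 to 46.9 TPM in RT112, nearly all of it vimentin in UM-UC-3. Of the 8 tested in Scr, 4 were higher in UM-UC-3, while CDH2 and LUM were higher in RT112. The part of these marker differences in the HOX differences was not tested, and line and cell state cannot be told apart with 1 line of each kind. The 4 endothelial markers summed to at most 2.35 TPM, and of 5 leukocyte markers only CD68, a lysosomal protein, was above 1 TPM, with 272 to 279 TPM in UM-UC-3 and 14.2 to 19.5 TPM in RT112.

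**Figure D1:**
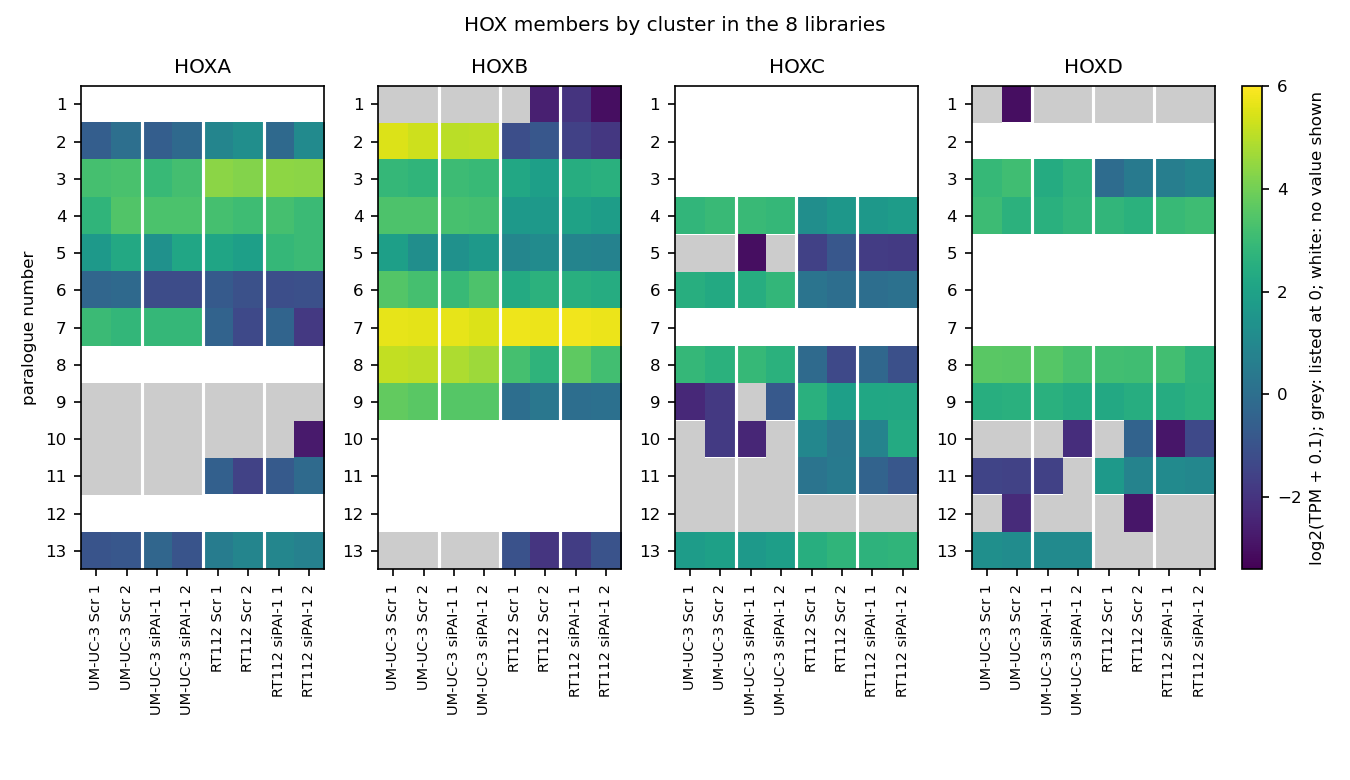
Level of each HOX member as log2(TPM + 0.1) in colour, with the paralogue number down the side, 1 panel per cluster and 1 column per library. Grey cells are listed at 0 and white cells have no value shown, and the bright HOXB7 row is alike in all 8 libraries while HOXB2, HOXA7, HOXC8, HOXC9, HOXC11 and HOXD13 change colour between the lines.

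Both lines used a broad set of HOX genes. In each library 27 to 34 members were above 0, and 20 to 23 were at 1 TPM or more. A group mean of at least 1 TPM in all 4 groups was found for 16 members, in both groups of UM-UC-3 alone for 5 and in both groups of RT112 alone for 5, while HOXB9 passed it in both UM-UC-3 groups and RT112 Scr and HOXC11 in RT112 Scr alone. The remaining 11 members stayed below 1 TPM in every group mean, with 0.81 TPM as the highest single value. HOXB7 was the highest member in every library.

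In Scr cells, 25 of the 36 members tested differed between RT112 and UM-UC-3, where 51.6% of 19201 genes did. RT112 was higher for 12 members (background 25.3%) and UM-UC-3 for 13 (background 26.3%). The median difference of the 36 members was -0.14, against -0.06 over all genes. The median size of the difference, whatever its sign, was 1.55 for the members and 0.735 for all genes. Of the members tested, 8 were listed at 0 in both Scr libraries of one line and 5 of these were called. They entered the test only through the line that had them, so the counts are a description of the pattern and not support for it. HOXA9, HOXA10 and HOXC12 were listed at 0 in all 4 Scr libraries and were not tested.

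In the HOXA cluster 5 members were higher in RT112, 1 was higher in UM-UC-3 and 3 of those tested were not called. HOXA2, which patterns the hindbrain and the second branchial arch, was 0.57 and 0.92 TPM in UM-UC-3 Scr, 0.56 and 0.77 in UM-UC-3 siPAI-1, 1.75 and 2.25 in RT112 Scr and 0.78 and 2.06 in RT112 siPAI-1. The Scr libraries of the lines did not overlap (log2 difference 1.33, SE 0.35, adjusted p = 0.0384), although the call was lost with 4 groups in 1 fit (adjusted p = 0.0624) and without any one of the 4 Scr libraries (adjusted p from 0.0888 to 0.21). In addition, 1 RT112 siPAI-1 library fell within the range of UM-UC-3. HOXA3, which is needed for the thymus and parathyroid, was 9.26 and 9.71 TPM in UM-UC-3 Scr, 7.62 and 9.09 in UM-UC-3 siPAI-1, 20.7 and 19.1 in RT112 Scr and 21.3 and 20.7 in RT112 siPAI-1. RT112 was higher in every library, by 2.08-fold in Scr (log2 difference 1.06, SE 0.10, adjusted p = 0.00251).

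HOXA4 and HOXA5, the next members in line, did not separate the lines in Scr. HOXA4 was 6.68 and 10.7 TPM in UM-UC-3 Scr, 10.04 and 9.96 in UM-UC-3 siPAI-1, 9.24 and 8.38 in RT112 Scr and 9.21 and 8 in RT112 siPAI-1, and the groups overlapped (log2 difference 0.06, 95% interval -0.68 to 0.80). HOXA5, which is needed for lung and skeletal development, was 3.03 and 4.71 TPM in UM-UC-3 Scr, 2.45 and 4.37 in UM-UC-3 siPAI-1, 4.22 and 3.63 in RT112 Scr and 7.21 and 7.88 in RT112 siPAI-1. In Scr the lines overlapped (log2 difference 0.05, 95% interval -0.73 to 0.83), while both RT112 siPAI-1 libraries were above all other libraries. The direction of both small differences turned without UM-UC-3 Scr replicate 1 or without RT112 Scr replicate 1.

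From HOXA7 on, called members of the HOXA cluster differed in both directions, with HOXA7 higher in UM-UC-3 and HOXA11 and HOXA13 higher in RT112. HOXA7 was 7.87 and 7.04 TPM in UM-UC-3 Scr, 7.12 and 7.18 in UM-UC-3 siPAI-1, 0.66 and 0.3 in RT112 Scr and 0.67 and 0.18 in RT112 siPAI-1. UM-UC-3 was higher in every library, by 13.7-fold in Scr (log2 difference -3.77, SE 0.40, adjusted p = 0.0031). HOXA13, a gene of the hindgut and urogenital tract, was 0.41 and 0.45 TPM in UM-UC-3 Scr, 0.71 and 0.42 in UM-UC-3 siPAI-1, 1.37 and 1.73 in RT112 Scr and 1.77 and 1.58 in RT112 siPAI-1. RT112 was higher in every library (log2 difference 1.63, SE 0.30, adjusted p = 0.0138). The HOXA13 call was lost without either UM-UC-3 Scr library and without RT112 Scr replicate 2, with log2 differences from 1.47 to 1.79 over the Scr libraries left out. HOXA11, which acts in limb, kidney and uterus, was listed at 0 in all UM-UC-3 libraries and was 0.59 and 0.24 TPM in RT112 Scr and 0.5 and 0.81 in RT112 siPAI-1, a low level that was called in Scr (adjusted p = 0.0175). HOXA6 stayed at 0.33 to 0.77 TPM in all libraries. HOXA10 was listed at 0 except for 0.05 TPM in 1 RT112 siPAI-1 library.

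In the HOXB cluster 6 members were higher in UM-UC-3, 1 was higher in RT112 and 3 were not called. HOXB2, a hindbrain patterning gene, had the largest difference of all members. It was 45.4 and 38.5 TPM in UM-UC-3 Scr, 32.8 and 32.97 in UM-UC-3 siPAI-1, 0.35 and 0.45 in RT112 Scr and 0.23 and 0.17 in RT112 siPAI-1. UM-UC-3 was 84.2-fold higher in Scr (log2 difference -6.39, SE 0.20, adjusted p = 0.000331), with HOXB2 the second highest member in UM-UC-3 and below 0.5 TPM in every RT112 library. HOXB3 was 7.16 and 6.56 TPM in UM-UC-3 Scr, 8.2 and 7.53 in UM-UC-3 siPAI-1, 4.57 and 3.61 in RT112 Scr and 5.38 and 5.82 in RT112 siPAI-1, and HOXB4, which promotes the expansion of blood stem cells, was 10.2 and 10.3 TPM in UM-UC-3 Scr, 9.5 and 9.09 in UM-UC-3 siPAI-1, 3.12 and 3.02 in RT112 Scr and 3.91 and 3.43 in RT112 siPAI-1. Both were higher in every UM-UC-3 library than in any RT112 library, by 1.67-fold for HOXB3 (log2 difference -0.74, SE 0.19, adjusted p = 0.0357) and 3.26-fold for HOXB4 (log2 difference -1.70, SE 0.14, adjusted p = 0.00168) in Scr. The HOXB3 call was lost without any one of the 4 Scr libraries, with log2 differences from -0.91 to -0.57.

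The lines were closer in the middle of the HOXB cluster. HOXB5 was 3.62 and 2.26 TPM in UM-UC-3 Scr, 2.45 and 3.12 in UM-UC-3 siPAI-1, 1.8 and 2.1 in RT112 Scr and 1.71 and 1.61 in RT112 siPAI-1, and although every UM-UC-3 library was above every RT112 library the difference in Scr was not called (log2 difference -0.54, 95% interval -1.41 to 0.34). HOXB6 was 11.1 and 9.15 TPM in UM-UC-3 Scr, 7.53 and 10.2 in UM-UC-3 siPAI-1, 5.01 and 6.19 in RT112 Scr and 5.67 and 5.25 in RT112 siPAI-1, higher in every UM-UC-3 library (log2 difference -0.84, SE 0.19, adjusted p = 0.0243 in Scr). The HOXB6 call was lost without any one of the 4 Scr libraries, with log2 differences from -0.99 to -0.69. HOXB7, a gene often abundant in carcinoma cells, was 49.6 and 48.4 TPM in UM-UC-3 Scr, 50.3 and 45.4 in UM-UC-3 siPAI-1, 54.8 and 52.2 in RT112 Scr and 56.2 and 52.9 in RT112 siPAI-1. It made up 18.7% to 21.3% of the summed HOX level in UM-UC-3 and 29.4% to 31.4% in RT112. Every RT112 library was slightly above every UM-UC-3 library, but the difference in Scr was not called, and its 95% interval ran from -0.05 to 0.30 (log2 difference 0.13, adjusted p = 0.178).

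On the other side of HOXB7, 1328 bases away, HOXB8 was 35.4 and 33.4 TPM in UM-UC-3 Scr, 28.4 and 24.4 in UM-UC-3 siPAI-1, 9.27 and 6.51 in RT112 Scr and 12.5 and 8.88 in RT112 siPAI-1. UM-UC-3 was 4.38-fold higher in Scr (log2 difference -2.13, SE 0.20, adjusted p = 0.00229), and no RT112 library reached the lowest UM-UC-3 library. HOXB9 was 13.2 and 12.1 TPM in UM-UC-3 Scr, 11.5 and 11.4 in UM-UC-3 siPAI-1, 0.91 and 1.17 in RT112 Scr and 0.9 and 0.95 in RT112 siPAI-1. It was near 1 TPM in RT112 and 11.2-fold higher in UM-UC-3 Scr (log2 difference -3.49, SE 0.21, adjusted p = 0.00087). HOXB13, a gene of prostate and distal gut that lies 98.4 kb from HOXB9, was listed at 0 in all UM-UC-3 libraries and was 0.39 and 0.16 TPM in RT112 Scr and 0.21 and 0.4 in RT112 siPAI-1, called in Scr (adjusted p = 0.0254). HOXB1 was at most 0.15 TPM in any library.

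In the HOXC cluster HOXC4, HOXC6 and HOXC8 were higher in UM-UC-3, and HOXC5, which had a low level, was higher in RT112. All tested members from HOXC9 on were higher in RT112. The calls of HOXC8 and HOXC9 were lost without UM-UC-3 Scr replicate 1 and also without UM-UC-3 Scr replicate 2. Without any one Scr library the log2 difference ran from -4.05 to -2.88 for HOXC8 and from 3.98 to 4.65 for HOXC9. HOXC4 was 6.83 and 7.76 TPM in UM-UC-3 Scr, 7.72 and 7.16 in UM-UC-3 siPAI-1, 2.27 and 2.89 in RT112 Scr and 2.98 and 3.38 in RT112 siPAI-1, and UM-UC-3 was higher in every library (log2 difference -1.47, SE 0.21, adjusted p = 0.00666). HOXC6 was 5.54 and 4.89 TPM in UM-UC-3 Scr, 5.43 and 7 in UM-UC-3 siPAI-1, 1.06 and 0.9 in RT112 Scr and 0.9 and 0.99 in RT112 siPAI-1, and UM-UC-3 was 4.93-fold higher in Scr (log2 difference -2.30, SE 0.23, adjusted p = 0.00261). HOXC8 was 7.1 and 5.99 TPM in UM-UC-3 Scr, 7.33 and 5.94 in UM-UC-3 siPAI-1, 0.8 and 0.3 in RT112 Scr and 0.73 and 0.36 in RT112 siPAI-1, again higher in every UM-UC-3 library, by 11.04-fold in Scr (log2 difference -3.46, SE 0.47, adjusted p = 0.00628). HOXC5 was near 0 in UM-UC-3. It was 0.23 and 0.46 TPM in RT112 Scr and 0.2 and 0.19 in RT112 siPAI-1, a low level that was called in Scr (adjusted p = 0.0134).

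HOXC9 lies 5647 bases from HOXC8 and had the opposite pattern, with 0.1 and 0.18 TPM in UM-UC-3 Scr, 0 and 0.48 in UM-UC-3 siPAI-1, 5.84 and 3.63 in RT112 Scr and 4.46 and 4.6 in RT112 siPAI-1. RT112 was 19.9-fold higher in Scr (log2 difference 4.31, SE 0.39, adjusted p = 0.00218), and no UM-UC-3 library reached 0.5 TPM. HOXC10, which is used in hindlimb and lumbar regions, was 0 and 0.19 TPM in UM-UC-3 Scr, 0.09 and 0 in UM-UC-3 siPAI-1, 1.83 and 1.21 in RT112 Scr and 1.64 and 5.04 in RT112 siPAI-1. The RT112 libraries were all above those of UM-UC-3 (log2 difference 3.22, SE 0.64, adjusted p = 0.0182), and 1 RT112 siPAI-1 library had the highest value by far. The HOXC10 call was lost without any one of the 4 Scr libraries (adjusted p from 0.0525 to 0.199), with log2 differences from 2.46 without UM-UC-3 replicate 1 to 3.99 without UM-UC-3 replicate 2, and with a pseudocount of 0.01 TPM (log2 difference 5.07, adjusted p = 0.0756). HOXC11 was listed at 0 in all UM-UC-3 libraries and was 1.05 and 1.24 TPM in RT112 Scr and 0.66 and 0.45 in RT112 siPAI-1 (adjusted p = 0.00165 in Scr). HOXC13, a regulator of hair and nail keratins, was 3.4 and 3.76 TPM in UM-UC-3 Scr, 3.15 and 3.58 in UM-UC-3 siPAI-1, 5.51 and 6.56 in RT112 Scr and 6.28 and 6.7 in RT112 siPAI-1, and RT112 was higher in every library, by 1.66-fold in Scr (log2 difference 0.73, SE 0.18, adjusted p = 0.0325). The HOXC13 call was lost without any one of the 4 Scr libraries, with log2 differences from 0.61 to 0.86.

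In the HOXD cluster 3 members were higher in UM-UC-3, 1 was higher in RT112 and 5 were not called. HOXD3 was 7.43 and 8.64 TPM in UM-UC-3 Scr, 5.08 and 6.39 in UM-UC-3 siPAI-1, 0.86 and 1.24 in RT112 Scr and 1.44 and 1.72 in RT112 siPAI-1, and UM-UC-3 was 7.15-fold higher in Scr (log2 difference -2.84, SE 0.26, adjusted p = 0.00223). HOXD4 was 8.13 and 6.13 TPM in UM-UC-3 Scr, 5.77 and 6.75 in UM-UC-3 siPAI-1, 6.76 and 6.02 in RT112 Scr and 7.48 and 8.3 in RT112 siPAI-1, with overlapping lines (log2 difference -0.14, 95% interval -0.69 to 0.41), and the direction turned without UM-UC-3 Scr replicate 1. HOXD8 was 11.9 and 11.7 TPM in UM-UC-3 Scr, 11.4 and 9.6 in UM-UC-3 siPAI-1, 8.91 and 8.6 in RT112 Scr and 8.78 and 6.26 in RT112 siPAI-1, higher in every UM-UC-3 library but by only 1.34-fold in Scr (log2 difference -0.42, SE 0.11, adjusted p = 0.034), a call that was lost with 4 groups in 1 fit (adjusted p = 0.0952) and without any one of the 4 Scr libraries (adjusted p from 0.0671 to 0.0805). HOXD9 was 5.57 and 5.9 TPM in UM-UC-3 Scr, 5.88 and 5.11 in UM-UC-3 siPAI-1, 4.68 and 5.32 in RT112 Scr and 5.27 and 6.04 in RT112 siPAI-1, with lines that overlapped over all libraries (log2 difference -0.20, 95% interval -0.63 to 0.24). HOXD1, HOXD10 and HOXD12 stayed at 0.65 TPM or below in every library.

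HOXD11 and HOXD13, whose promoters are printed above, went opposite ways. HOXD11, a limb and kidney gene, was 0.26 and 0.24 TPM in UM-UC-3 Scr, 0.23 and 0 in UM-UC-3 siPAI-1, 3.08 and 1.63 in RT112 Scr and 2.02 and 1.85 in RT112 siPAI-1. Every RT112 library was above every UM-UC-3 library (log2 difference 2.75, SE 0.41, adjusted p = 0.00819). HOXD13, the last gene of its cluster and a gene of digits and the genital tract, was 2.31 and 2.13 TPM in UM-UC-3 Scr and 2.03 and 2.03 in UM-UC-3 siPAI-1 and was listed at 0 in all 4 RT112 libraries (adjusted p = 0.000986 in Scr). No fold is given for members listed at 0 in one line, because the fitted difference then depends on the pseudocount. The folds of members with a low level in one line depend on it as well. With a pseudocount of 1 TPM the log2 difference in Scr was -4.93 for HOXB2, -2.52 for HOXA7, -2.74 for HOXB9, -1.65 for HOXC6, -2.30 for HOXC8 and -2.14 for HOXD3, and it was 2.30 for HOXC9, 1.2 for HOXC10, 1.39 for HOXD11 and 0.83 for HOXA13. All of these were still called.

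Along the clusters, neighbouring genes could differ in direction. Of 35 neighbouring pairs of members, 13 had both genes called in Scr, 9 of them with the same line higher and 4 with opposite lines higher. The opposite pairs were HOXB9 and HOXB13, HOXC4 and HOXC5, HOXC5 and HOXC6, and HOXC8 and HOXC9. HOXB13 and HOXC5 were listed at 0 in UM-UC-3 Scr and were at most 0.46 TPM in RT112. The share for neighbouring genes over the whole table was not computed, so these pair counts have no background. By paralogue number, 3 members of numbers 1 to 4 were higher in RT112 and 5 in UM-UC-3. For numbers 5 to 8 the counts were 1 and 6, and for numbers 9 to 13 they were 8 and 2. Over all genes 25.3% were higher in RT112 and 26.3% in UM-UC-3. HOXC5, HOXA11, HOXB13 and HOXC11 were listed at 0 in UM-UC-3 Scr and were tested only through RT112, and HOXD13 only through UM-UC-3. With a filter at a mean of 1 TPM, 6 members of all numbers were higher in RT112 and 13 in UM-UC-3. These counts are of members called in Scr, and the difference between the classes was not tested.

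Some members share annotated bases, so part of their reads cannot be assigned with certainty. By the GENCODE annotation 8 members share exonic bases with another member, namely HOXB3 with HOXB4 and HOXB6, HOXC6 with HOXC4 and HOXC9, and HOXD10 with HOXD11. HOXC6 and HOXC9 are among these, although they differed in opposite directions. On the same strand, exons of HOXA3, HOXA4, HOXA6, HOXA9, HOXA10, HOXC4, HOXC5, HOXC6 and HOXC10 overlap genes that are not members. Whether reads of HOXA9, HOXA10 and HOXC5, whose listed levels were low or absent, were assigned to such genes was not tested. For 20 members an antisense gene overlaps an exon, among them HOXA7 (HOXA-AS3), HOXB2 (HOXB-AS1) and HOXC9 (HOXC-AS2). The library kit keeps strand, but whether the counting used it is not given in the sources used here.

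**Figure D2:**
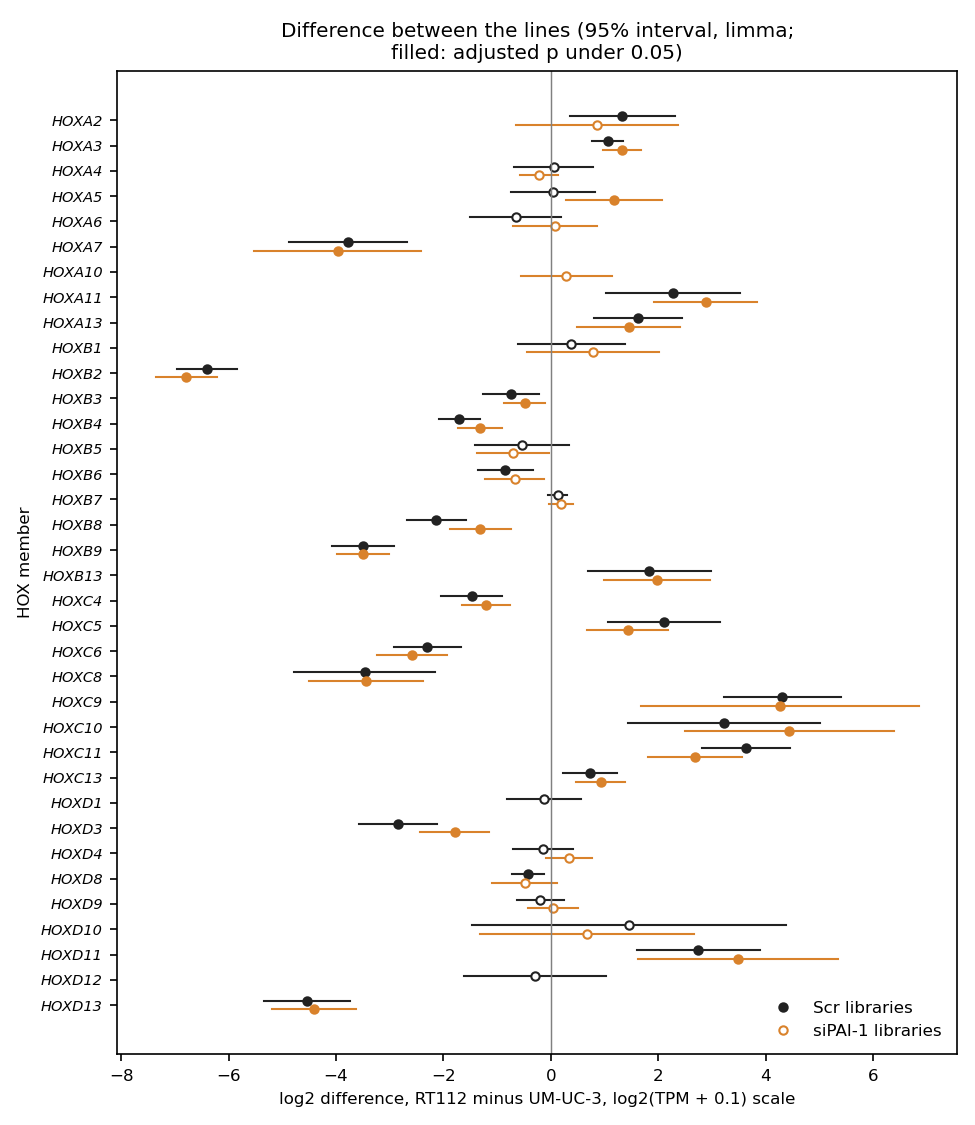
Difference between the lines (RT112 minus UM-UC-3) on the log2(TPM + 0.1) scale with its 95% interval, for the members tested and shown, in Scr libraries (black) and siPAI-1 libraries (orange). Filled points are called at an adjusted p under 0.05, and the pattern runs from HOXB2 at -6.40 to HOXC9 at 4.31 in Scr and looks alike in both sets of libraries.

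The siPAI-1 libraries gave a second comparison of the lines with other libraries. There 23 of 35 members tested differed, 12 higher in RT112 and 11 higher in UM-UC-3, where 52.2% of 19359 genes differed (26.2% and 26.1% by direction). Of all members, 22 were called in the same direction in both sets of libraries, 11 in each direction, and 0 were called in opposite directions. The share of all genes called the same way in both sets was not computed, so this agreement has no background and is not particular to the members. HOXA2 (adjusted p = 0.267), HOXB6 (adjusted p = 0.0527) and HOXD8 (adjusted p = 0.141) were called in Scr but missed the threshold in siPAI-1. HOXA5 was called in siPAI-1 only (log2 difference 1.18, adjusted p = 0.0431).

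With 2 libraries per group, single libraries weighed heavily on the calls. The counts that follow are of members called in each reduced fit, and some of these were not called with all libraries. They include HOXB1 and HOXD10 without RT112 Scr replicate 1, and HOXD1 without UM-UC-3 Scr replicate 1. In siPAI-1 they include HOXA10 and HOXB1 without RT112 replicate 1. All of these stayed below 1 TPM, so fewer of the first calls remained than the counts show. Without RT112 Scr replicate 1 the call was made for 11 members higher in RT112 and 9 higher in UM-UC-3, and without RT112 Scr replicate 2 for 8 and 10. Without UM-UC-3 Scr replicate 1 it was made for 3 and 6, and without UM-UC-3 Scr replicate 2 for 3 and 5. The calls of HOXA7, HOXA11, HOXA13, HOXB8, HOXB13, HOXC4, HOXC5, HOXD3 and HOXD11 were lost without UM-UC-3 Scr replicate 1 and also without replicate 2. That of HOXC4 was lost without RT112 Scr replicate 1 as well. Without any one Scr library the log2 difference ran from -4.24 to -3.31 for HOXA7, -2.38 to -1.88 for HOXB8 and -1.64 to -1.30 for HOXC4. It ran from -3.08 to -2.60 for HOXD3 and 2.31 to 3.18 for HOXD11. HOXA3, HOXB2, HOXB4, HOXB9, HOXC6, HOXC11 and HOXD13 were among the members called whichever of the 4 Scr libraries was left out. In the siPAI-1 libraries the same held for HOXB2, HOXB9 and HOXD13 among others, and the counts fell to 6 and 7 without RT112 replicate 1, 5 and 7 without RT112 replicate 2, 5 and 4 without UM-UC-3 replicate 1 and 6 and 4 without UM-UC-3 replicate 2.

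Summed over members, the clusters had different weights in the lines. HOXB was the highest cluster in both, at 160.58 to 175.6 TPM in UM-UC-3 Scr and 75.49 to 80.2 TPM in RT112 Scr, a ratio of means of 2.16. HOXA was lower in UM-UC-3 (33.5 ± 4.17 TPM, SD, n = 2) than in RT112 (50.9 ± 0.389 TPM, SD, n = 2). HOXC differed less, with 22.9 ± 0.141 TPM in UM-UC-3 and 17.9 ± 0.99 TPM in RT112 (SD, n = 2). HOXD was 35.2 ± 0.488 TPM in UM-UC-3 and 23.9 ± 0.559 TPM in RT112 (SD, n = 2). The Scr libraries of the lines did not overlap for any cluster. All members together summed to 260 ± 7.09 TPM in UM-UC-3 Scr and 171 ± 5.27 TPM in RT112 Scr (SD, n = 2), and no test was made of these sums.

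**Figure D3:**
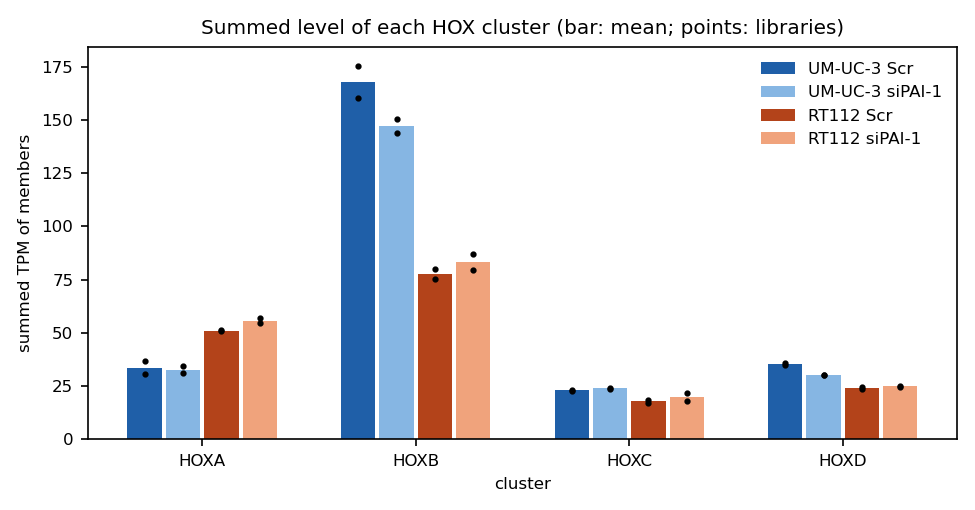
Summed TPM of the members of each cluster, as the mean of 2 libraries per group (bars) with each library as a point. HOXB is the tallest cluster in all 4 groups and is about 168 TPM in UM-UC-3 Scr and 77.8 TPM in RT112 Scr, while HOXA is the only cluster that is higher in RT112.

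Paralogue groups, the genes with one number in different clusters, differed between the lines to varying degrees. Number 7 overlapped between them, although HOXA7 itself differed, and summed to 52.55 to 57.49 TPM in the UM-UC-3 libraries and 52.51 to 56.91 TPM in the RT112 libraries. Number 13 summed to 5.89 to 6.34 TPM in UM-UC-3 and 7.27 to 8.68 TPM in RT112, with HOXC13 and HOXD13 in UM-UC-3 and HOXC13 and HOXA13 in RT112, and the libraries of the lines did not overlap. Number 2 was higher in UM-UC-3, at 33.36 to 45.94 TPM in UM-UC-3 and 1.01 to 2.7 TPM in RT112. Numbers 10 and 11 summed to at most 0.19 and 0.26 TPM in UM-UC-3 and to 1.68 to 5.39 and 3.11 to 4.72 TPM in RT112.

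The siPAI-1 comparison asks whether HOX levels move with siPAI-1. In UM-UC-3, limma called 0 of 32 members tested and 0% of 18528 genes after Benjamini-Hochberg adjustment, and 2 members had an unadjusted p under 0.05, where 6.01% of all genes did. These were HOXB8, which was 35.4 and 33.4 TPM in Scr and 28.4 and 24.4 in siPAI-1, and HOXB2, which was 45.4 and 38.5 TPM in Scr and 32.8 and 32.97 in siPAI-1. Both siPAI-1 libraries were below both Scr libraries for these genes. The log2 difference was -0.38 for HOXB8 (95% interval -0.65 to -0.12, limma unadjusted p = 0.0135, adjusted p = 0.791) and -0.34 for HOXB2 (95% interval -0.60 to -0.09, limma unadjusted p = 0.0184, adjusted p = 0.791).

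Over the 22 members whose mean reached 1 TPM in a UM-UC-3 group, 17 were lower and 5 higher with siPAI-1, with a median log2 difference of -0.105 against -0.005 over 12268 genes of that level. The differences ran from -0.48 (HOXD3) to 0.24 (HOXC6). The 95% interval stayed within a 2-fold change in either direction for 21 of the 22. For 9 of them the Scr and siPAI-1 libraries did not overlap, a share near the 38.1% of all genes of that level.

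In RT112, 0 of 35 members tested and 0% of 18437 genes were called by limma after adjustment, and 1 member had an unadjusted p under 0.05, where 5.77% of all genes did. This was HOXA5, which was 4.22 and 3.63 TPM in Scr and 7.21 and 7.88 in siPAI-1, so that both siPAI-1 libraries were higher. The log2 difference was 0.93 (95% interval 0.41 to 1.44, limma unadjusted p = 0.00615, adjusted p = 0.838). Of the 23 members whose mean reached 1 TPM in an RT112 group, 14 were higher and 9 lower, with a median of 0.08 against 0.008 over 12457 genes of that level. The differences ran from -0.94 (HOXC11) to 0.93 (HOXA5). The intervals were wider here, and 12 of the 23 stayed within a 2-fold change. Libraries did not overlap for 9 of the 23 members, where 37.6% of all genes of that level did not.

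**Figure D4:**
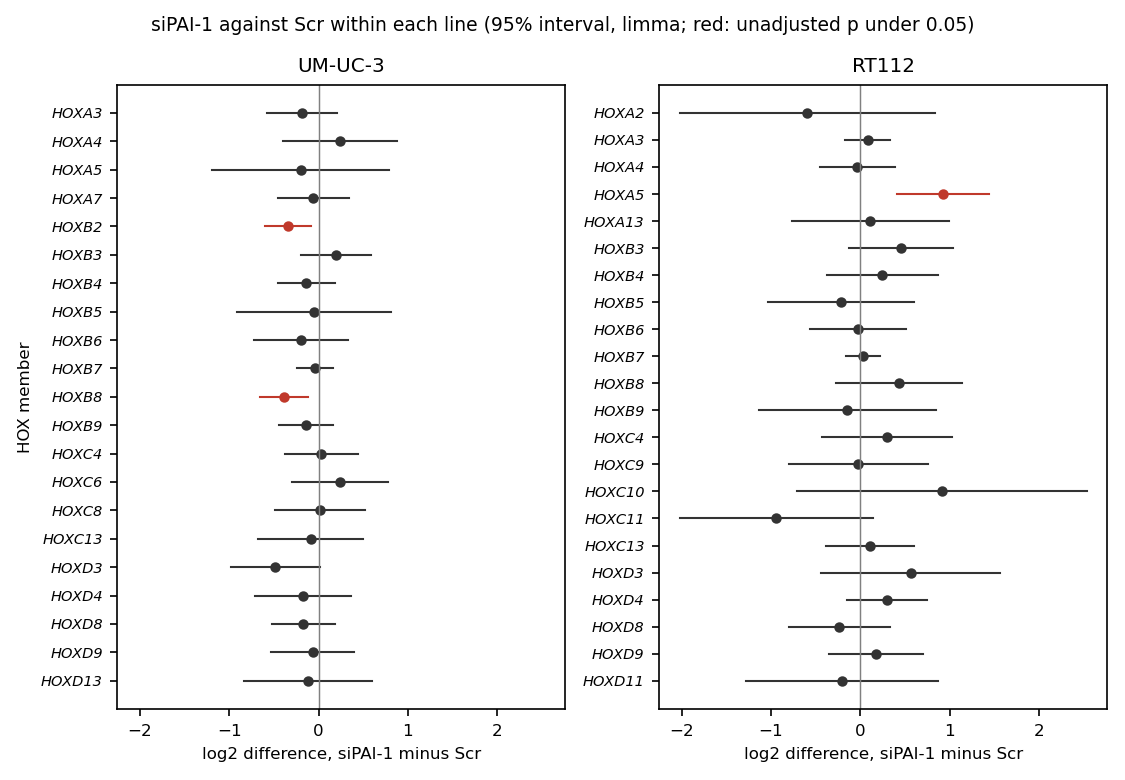
Difference between siPAI-1 and Scr on the log2(TPM + 0.1) scale with its 95% interval, for the members whose mean reached 1 TPM in a group of UM-UC-3 (left, 21 members drawn) or RT112 (right, 22 members drawn). Red marks an unadjusted p under 0.05, which HOXB2 and HOXB8 had in UM-UC-3 and HOXA5 in RT112, and no member passed the adjusted test.

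Whether the effect of siPAI-1 differed between the lines was tested as an interaction over all 8 libraries. Limma called 0 of 37 members and 0% of 20274 genes after adjustment, and 3 members had an unadjusted p under 0.05, where 6.76% of all genes did. The effect in RT112 minus that in UM-UC-3 was 1.13 for HOXA5 (SE 0.46, adjusted p = 0.73), 0.82 for HOXB8 (SE 0.31, adjusted p = 0.702) and 1.05 for HOXD3 (SE 0.37, adjusted p = 0.684) on the log2 scale. The comparisons within the lines share their libraries with this test and do not add to it. Of 28 members that reached a mean of 1 TPM in any group, 3 (HOXA3, HOXB4 and HOXD3) were lower with siPAI-1 in every UM-UC-3 library and higher in every RT112 library, where 3.9% of 13698 genes of that level were.

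**Figure D5:**
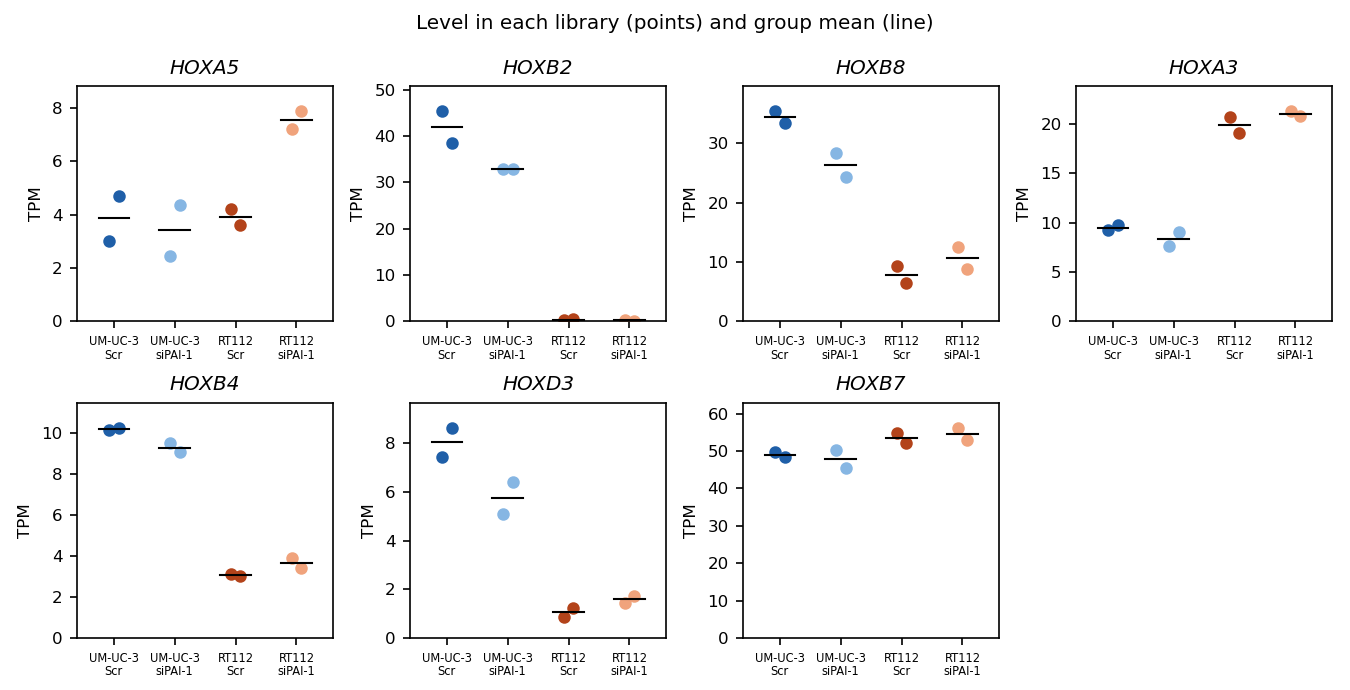
TPM in each library (points) with the group mean (line), for 7 HOX members, each panel starting at 0. HOXA5 is highest in RT112 siPAI-1, in UM-UC-3 the siPAI-1 libraries are below the Scr libraries for HOXB2 and HOXB8, and HOXB7 lies between 45.4 and 56.2 TPM throughout.

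The DNA-binding partners of HOX proteins were read against the same background. Of 9 TALE cofactors, 2 were higher in RT112 Scr, 2 were higher in UM-UC-3 Scr and 5 were not called, where 51.6% of all genes differed (median difference 0.13 for the list and -0.06 over all genes). PBX3 was 44.7 and 49.03 TPM in UM-UC-3 Scr, 43.3 and 55.6 in UM-UC-3 siPAI-1, 13.3 and 11.9 in RT112 Scr and 10.1 and 10.9 in RT112 siPAI-1, and every UM-UC-3 library was above every RT112 library. PBX4 was 0.42 and 0.66 TPM in UM-UC-3 Scr, 0.06 and 0.18 in UM-UC-3 siPAI-1, 2.35 and 2.6 in RT112 Scr and 2.92 and 3.45 in RT112 siPAI-1, with the RT112 libraries all higher. MEIS3, a member of the other cofactor branch, was 25.4 and 32.9 TPM in UM-UC-3 Scr, 26.2 and 24.8 in UM-UC-3 siPAI-1, 1.62 and 2.62 in RT112 Scr and 1.13 and 0.92 in RT112 siPAI-1, higher in every UM-UC-3 library.

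Among 19 Polycomb genes, 4 were higher in RT112 and 6 higher in UM-UC-3 in Scr, a share near the 51.6% of all genes called. The catalytic subunit EZH2 was 47.7 and 48.3 TPM in UM-UC-3 Scr, 48.2 and 51.3 in UM-UC-3 siPAI-1, 45.5 and 42.3 in RT112 Scr and 40.6 and 38.97 in RT112 siPAI-1, and its difference in Scr was not called (adjusted p = 0.202). BMI1, a core component of the other main complex, was 62.03 and 55.9 TPM in UM-UC-3 Scr, 58.8 and 57.8 in UM-UC-3 siPAI-1, 23.6 and 26.7 in RT112 Scr and 19.1 and 29.1 in RT112 siPAI-1, higher in every UM-UC-3 library. Of 12 Trithorax genes and H3K27 demethylases, 2 were higher in RT112 and 2 in UM-UC-3, which is below that share. KDM6A, which removes the mark of Polycomb and is often mutated in bladder cancer, was 7.66 and 7.63 TPM in UM-UC-3 Scr, 9.79 and 8.34 in UM-UC-3 siPAI-1, 16.4 and 11.9 in RT112 Scr and 15.95 and 12.1 in RT112 siPAI-1, higher in every RT112 library. The median difference was -0.13 for the Polycomb list and -0.10 for the Trithorax list, against -0.06 over all genes.

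Of 17 retinoic acid genes, 15 were tested, and 8 were higher in RT112 and 4 higher in UM-UC-3 in Scr, where 51.6% of all genes were called. Their median difference was 0.88, against -0.06 over all genes. ALDH1A3, which makes retinoic acid, was 3.67 and 3.54 TPM in UM-UC-3 Scr, 5.61 and 3.35 in UM-UC-3 siPAI-1, 1094 and 1111 in RT112 Scr and 850 and 1063 in RT112 siPAI-1. ALDH1A1, another enzyme of this step, was 49.4 and 49.5 TPM in UM-UC-3 Scr, 52.1 and 48.1 in UM-UC-3 siPAI-1, 0.02 and 0.19 in RT112 Scr and 0.08 and 0.06 in RT112 siPAI-1. Of ALDH1A1 and ALDH1A3, the first thus had more RNA in UM-UC-3 and the second in RT112, and enzyme activity was not measured. The binding protein CRABP2 was 4.16 and 4.07 TPM in UM-UC-3 Scr, 2.6 and 1.79 in UM-UC-3 siPAI-1, 40.7 and 44.8 in RT112 Scr and 56.3 and 52.5 in RT112 siPAI-1, and the receptor RXRA was 26.5 and 27.98 TPM in UM-UC-3 Scr, 27.5 and 31.6 in UM-UC-3 siPAI-1, 112 and 118 in RT112 Scr and 121 and 123 in RT112 siPAI-1, both higher in every RT112 library. None of the genes in these 4 lists was called for siPAI-1 against Scr in either line, and how these genes relate to the HOX levels was not tested. At an unadjusted p under 0.05 in UM-UC-3 there were 1 TALE, 2 Polycomb, 2 Trithorax and 1 retinoic acid gene, and in RT112 there was 1 retinoic acid gene.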

How the data were processed

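RNA was measured in 8 libraries of UM-UC-3 and RT112 cells, 2 per group. Per the labels and the methods, the authors trimmed single reads of 75 bases, aligned them with STAR (2.5.0 in the submitters' processing notes) to hg38, and deposited TPM and FPKM values per gene. RSEM 1.2.25 is in the notes and featureCounts in the methods, so the program behind the deposited TPM and FPKM values is not settled. No counts were used, so limma took the place of the count test the methods name. The members and lists were chosen with earlier results of these data known.

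Each library was given its line, siRNA and replicate number from its title. limma 3.58.1 in R 4.3.3 (lmFit, eBayes with trend, two-sided) was run on log2(TPM + 0.1) over genes that 1 or more of the libraries fitted held above 0 TPM, with Benjamini-Hochberg adjustment, and was tested on simulated data. Each comparison used its own 4 libraries and the interaction all 8. Depth was estimated from the steps between low FPKM values within 20 to 45 M reads, and covers counting error only. Members with a group mean of at least 1 TPM in any group were named with all values, other members where called or at an unadjusted p under 0.05 for siPAI-1. Sums, counts and plots were made with matplotlib 3.10.9, numpy 2.4.6 and pandas 2.3.3 under Python 3.11.15. Tried as alternatives were FPKM, a pseudocount of 1 or 0.01, median ratio scaling, a filter at a mean of 1 TPM, 4 groups in 1 fit, eBayes without trend, a replicate block and each library left out. ERCC entries (92, all at 0) were left out. Values of some single genes are not reported here, although counts and sums include them.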

Additional observations from a re-analysis of the deposited data

Results flagged for a closer look

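Of 28 members that reached a mean of 1 TPM in any group, 3 had every siPAI-1 library below every Scr library in UM-UC-3 and above every Scr library in RT112, as did 3.9% of 13698 genes of that level. The effect of siPAI-1 in RT112 minus that in UM-UC-3 was 1.05 for HOXD3 on the log2 scale (unadjusted p = 0.0259, adjusted p = 0.684, limma interaction with Benjamini-Hochberg adjustment). It was 0.38 for HOXB4 (adjusted p = 0.827, limma) and 0.27 for HOXA3 (adjusted p = 0.846, limma). None of the 3 passed the adjusted test of the difference. HOXA3 and HOXB4 changed by less than 0.3 on the log2 scale in each line, with values of -0.19 and 0.08 for HOXA3 and -0.14 and 0.25 for HOXB4. HOXD3 had -0.48 in UM-UC-3 and 0.56 in RT112.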

How the results depend on the processing

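The counts of members called between the lines in Scr were within 1.5 times of the 12 higher in RT112 and 13 higher in UM-UC-3 under all alternatives except a mean of at least 1 TPM, which left 6 higher in RT112 (fewer genes tested), and leaving out libraries, where the lone library is assumed to vary like the others. Leaving out 1 library gave 3 to 11 and 5 to 10 in Scr, and 5 to 6 and 4 to 7 in siPAI-1. Over all genes it gave 2975 to 3120 higher and 2655 to 3589 lower in Scr, and 2492 to 3904 and 2802 to 3238 in siPAI-1. For siPAI-1 against Scr and the interaction, 0 members were called under every alternative. Over all genes, 1 was lower in UM-UC-3 at a mean of at least 1 TPM, 2 were higher in RT112 with 4 groups in 1 fit, and the interaction had 4 and 3 without trend and 0 to 101 higher and 0 to 42 lower without 1 library. The log2 ratio of the summed HOXD level was -0.56, and -0.51 with median ratio scaling. Leaving out 1 Scr library moved HOXA4 between -0.28 (UM-UC-3 replicate 1) and 0.39, HOXA5 between -0.26 (UM-UC-3 replicate 1) and 0.36, and HOXD4 between -0.35 and 0.057 (UM-UC-3 replicate 1). HOXA4 also turned to -0.01 and HOXA5 to -0.06 without RT112 Scr replicate 1, and none of these turned values was called. The cause of these shifts was not tested.

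The replicate numbers did not pair the libraries (correlation of replicate differences between groups from -0.043 to 0.098 over 12803 genes). With the number as a replicate block, 11 members were higher in RT112 and 12 in UM-UC-3 in Scr. Low members rest on few reads, and depth limits them.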

Other observations

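Of 14 genes that flank the clusters, 10 were tested, and 3 were higher in RT112 Scr and 3 higher in UM-UC-3 Scr (limma, adjusted p under 0.05), a share near the 51.6% of all genes called. SKAP2, which flanks the low-numbered end of HOXA, was 19.8 and 20.2 TPM in UM-UC-3 Scr, 22.3 and 19.9 in UM-UC-3 siPAI-1, 51.5 and 47.7 in RT112 Scr and 50.3 and 46.2 in RT112 siPAI-1, with the RT112 libraries all higher. CALCOCO1, on the side of HOXC13, was 22.6 and 27.2 TPM in UM-UC-3 Scr, 24.7 and 22.6 in UM-UC-3 siPAI-1, 2.65 and 4.53 in RT112 Scr and 3.65 and 3.33 in RT112 siPAI-1, the opposite direction to HOXC13. The noncoding RNA HAGLROS of the HOXD cluster was 0.18 and 0 TPM in UM-UC-3 Scr, 0 and 0.05 in UM-UC-3 siPAI-1, 3.33 and 3.04 in RT112 Scr and 3.38 and 2.63 in RT112 siPAI-1.

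Of 13 ParaHox genes and near relatives, 9 were tested, and 3 were higher in RT112 and 2 higher in UM-UC-3, again near the 51.6% of all genes. CDX2, an intestinal regulator that can act on HOX genes, was 0.1 and 0.53 TPM in UM-UC-3 Scr, 1.08 and 0.02 in UM-UC-3 siPAI-1, 7.18 and 7.26 in RT112 Scr and 11.2 and 6.25 in RT112 siPAI-1. PDX1, a regulator of pancreas and duodenum, was 0 and 0.07 TPM in UM-UC-3 Scr, 0.05 and 0.06 in UM-UC-3 siPAI-1, 2.39 and 3.5 in RT112 Scr and 4.44 and 3.07 in RT112 siPAI-1. GBX2, a gene of the midbrain and hindbrain border, was 10.2 and 11.5 TPM in UM-UC-3 Scr, 11.7 and 9.42 in UM-UC-3 siPAI-1, 2.12 and 1.94 in RT112 Scr and 1.94 and 1.51 in RT112 siPAI-1, higher in every UM-UC-3 library. For siPAI-1 against Scr, 0 genes of these lists were called in either line (limma), while 2 flanking genes in RT112, SMUG1 and CBX5, and 0 ParaHox genes or relatives had an unadjusted p under 0.05.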
